A study of Mus musculus with 78 samples.

Results

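The 9 genes described here are H19, Igf2, Meg3, Rian, Mirg, Dlk1, Peg3, Afp and Gpc3, imprinted genes and genes of the fetal liver, taken by symbol from a count table of 43629 genes and 78 mouse liver libraries. They were chosen by their counts in each library and in each intervention against its own control, with earlier results of these libraries known. Differences between an intervention and its control are therefore given as a description. Their adjusted p values and calls belong to that description and are no independent support. The rule of the choice named no comparison of the sexes, and differences between them are tested. The same library counts hold both sexes, however, so independence of these tests from the choice is not established. The libraries form 26 groups of 3 mice, and each count is the number of poly(A) RNA reads assigned to a gene.

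Mice of the genetically mixed UM-HET3 stock, of both sexes, were studied at 6 months after 2 months, and at 12 months after 8 months, of an intervention. At 6 months they had acarbose in the diet (1000 ppm), calorie restriction by 40%, rapamycin (42 ppm), Protandim (1200 ppm) or 17aE2, which is 17-alpha-estradiol (14.4 ppm), and at 12 months acarbose (1000 ppm), calorie restriction by 40% or rapamycin (14 ppm). Control mice ate the same chow, Purina 5LG6, without a compound. Male C57BL/6J mice had a diet with 0.12% methionine for 12 months, until 14 months of age, and their controls ate the same diet with 0.86% methionine. The 2 dwarf models were 5-month-old males and ate the same chow: GHRKO mice, which lack the growth hormone receptor, of (C57BL6/JxBALB/cByJ)/F2 stock, and Snell dwarf mice of (PW/JxC3H/HeJ)/F2 stock, whose pituitary mutation is known to remove growth hormone, prolactin and thyroid stimulating hormone. Each model had littermate controls of the same age and sex. Whole liver was sequenced, so fewer cells of a type and less RNA per cell cannot be told apart. Total counts ran from 15521588 to 37778510 per library. The targeted receptor gene, Ghr, had 818, 1366 and 1337 counts in the GHRKO livers and 10809, 11232 and 7407 in their controls.

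Imprinted genes are transcribed mainly from the chromosome inherited from one parent. H19, a noncoding RNA made from the maternal copy, and Igf2, a growth factor made from the paternal copy, are neighbours, and so are the maternal noncoding RNAs Meg3, Rian and Mirg and the paternal gene Dlk1, which encodes a Notch-related protein. Peg3, a paternally expressed zinc finger gene, lies elsewhere. Afp, the main serum protein of the fetus, and Gpc3, a cell surface proteoglycan, are high in fetal liver, and Afp, H19, Igf2 and Gpc3 are known to be silenced in hepatocytes after birth. H19 is also known to stay on in adult skeletal muscle.

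In the GENCODE M21 annotation of GRCm38, H19 lies on chromosome 7 from 142575529 to 142578143 and Igf2 from 142650766 to 142666816, both on the minus strand and 72.6 kb apart. Peg3 lies on the same chromosome from 6703892 to 6730431. On chromosome 12 the order is Dlk1 (109452823 to 109463336), Meg3 (109541001 to 109571726), Rian (109603940 to 109661716) and Mirg (109729764 to 109749460), all on the plus strand, with 32.2 kb between Meg3 and Rian and 68.0 kb between Rian and Mirg. Afp lies on chromosome 5 from 90490737 to 90508907 and Gpc3 on chromosome X from 52272426 to 52613950. Other annotated genes overlap 64.5% of the exon bases of Igf2, 9.15% of those of H19 and 8.29% of those of Meg3, and the library kit named in the labels does not mark the strand, so Igf2 counts are the least certain of these.

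The noncoding members are hosts of microRNAs, and the mature sequences that lie in exons of the 3 hosts whose counts moved most (H19, Meg3 and Mirg) are shown with the seed, bases 2 to 8, in capitals. They are RefSeq sequences on GRCm38.p6, and the poly(A) libraries measure the host transcripts, not the microRNAs. The first pair lies in H19, the next pair in Meg3 and the others in Mirg.
miR-675-5p: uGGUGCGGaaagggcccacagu
miR-675-3p: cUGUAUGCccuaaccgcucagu
miR-770-5p: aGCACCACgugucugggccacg
miR-770-3p: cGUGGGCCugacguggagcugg
miR-134-5p: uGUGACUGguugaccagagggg
miR-134-3p: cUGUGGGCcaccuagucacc
miR-485-3p: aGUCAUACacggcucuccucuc
miR-377-5p: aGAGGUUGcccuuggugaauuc
miR-377-3p: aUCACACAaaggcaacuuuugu
miR-410-5p: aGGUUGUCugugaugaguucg
miR-410-3p: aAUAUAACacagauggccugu
None of these 11 shares its seed with another. Among all microRNAs matched to the 9 genes, the seed GGUUGCC was the only one found more than once, in miR-453 and miR-496a-5p of Mirg introns.

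Meg3 and Mirg counts moved together between the sexes, as described further on, so the 300 bases around a RefSeq start, from 250 before to 50 after, are shown for both, for Meg3 the first of its 2 starts. The Meg3 window is chr12:109540746-109541045 and the Mirg window chr12:109734731-109735030, on the plus strand of GRCm38.p6, and the Mirg start in RefSeq lies inside the GENCODE gene. Capitals mark matches to a cAMP response element (TGACGTCA) and to TATAAA on either strand, whose matches on the 2 strands overlap.
Meg3: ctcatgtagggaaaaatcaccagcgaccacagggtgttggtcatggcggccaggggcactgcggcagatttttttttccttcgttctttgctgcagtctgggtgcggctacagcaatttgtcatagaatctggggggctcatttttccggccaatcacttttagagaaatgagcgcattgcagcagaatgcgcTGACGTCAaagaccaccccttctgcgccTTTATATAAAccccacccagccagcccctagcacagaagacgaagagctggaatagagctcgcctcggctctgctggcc
Mirg: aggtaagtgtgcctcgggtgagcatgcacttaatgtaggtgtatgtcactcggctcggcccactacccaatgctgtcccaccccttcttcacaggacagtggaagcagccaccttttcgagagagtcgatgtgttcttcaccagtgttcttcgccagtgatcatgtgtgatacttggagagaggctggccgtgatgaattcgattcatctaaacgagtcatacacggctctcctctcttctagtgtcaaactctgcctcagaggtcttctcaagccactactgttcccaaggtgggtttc
The Meg3 window held the cAMP response element 57 bases before the start and TATAAA 25 bases before it. Of 32851 RefSeq promoter windows of this length, 1.79% held the former and 13.6% the latter. The Mirg window held neither of them, nor a STAT5 motif (TTCNNNGAA, in 8.3% of windows) or an HNF1 motif (in 0.00913%), all searched on both strands. Among the other members, the Peg3 window held TGACGTCA 178 bases before the start, that of Afp held TATAAA 7 bases before it and that of Rian the STAT5 motif 46 bases before it. Such matches describe letters, not binding. RefSeq promoter entries were matched for 8 of the 9 genes, not for H19.

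All 9 genes are in the table, but Rian and Dlk1 are listed at 0 in every library. If the 0 is a true count, it allows up to 0.0794 to 0.193 CPM in a library, depending on its depth, counting error only. Whether the 0 of Rian, which lies between the detected Meg3 and Mirg, comes from the authors' annotation or counting was not tested. It is therefore not read as absence of the transcript. Of the other 7 genes, Meg3, Peg3, Afp and Igf2 had counts in 78 of 78 libraries, Gpc3 in 77, H19 in 71 and Mirg in 52. CPM is the usual normalised read count, a gene's counts divided by the library size and put on the common CPM scale, here scaled with the trimmed mean of M values. Per kilobase of exon, the median level over libraries was 0.679 CPM for Afp, 0.301 for Peg3, 0.284 for Gpc3, 0.0897 for Igf2, 0.0813 for Meg3, 0.072 for H19 and 0.00905 for Mirg. All 7 are thus rare transcripts in these livers, and many values rest on a few counts. The filter on low counts kept these 7 at 6 and at 12 months. A gene low in its controls can pass this filter through the treated mice alone, and a gene low in females through males alone. Mirg was not tested in methionine restriction or in either dwarf model, and Igf2 was not tested in GHRKO.

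H19 was the member with the widest range. The 3 Snell dwarf livers and 3 other libraries held 7422 of all 7873 H19 counts, or 94.3%. In the 69 libraries outside these and GHRKO, H19 had 0 to 37 counts, with a median of 4.0. The 3 others were the second calorie restricted female of 6 months (2620 counts), the second calorie restricted male of 6 months (371) and the third rapamycin male of 12 months (1527). Each of these 3 stood apart from its group mates, which had 25 and 11, 5 and 4, and 2 and 6 counts.

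Those 3 libraries carried skeletal muscle transcripts. Acta1, the actin of skeletal muscle fibres, and Ckm, the muscle creatine kinase, summed to 15650 counts in the calorie restricted female, 2155 in the male and 16192 in the rapamycin male, against 0 to 7 in their mates. Only 2 other libraries passed 100 counts of the pair, the first Snell dwarf with 3251 and the first GHRKO mouse with 162. The remaining 73 libraries had at most 35, with a median of 0.0. As the 5 libraries form a separate cluster, no correlation over all 78 is given. Among the 73 libraries, log2 CPM of H19 centred on each group had r = 0.216 and rho = 0.265 with the muscle pair, and r = 0.229 without the 2 libraries farthest from the median. These are descriptions: counts of the pair were low in the 73 libraries, at most 35, so the correlations say little about a relation there.

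The amount of H19 for each muscle count was 16.7 per 100 counts of the pair in the calorie restricted female, 17.2 in the male and 9.43 in the rapamycin male. In the first Snell dwarf it was 55.7. The other 2 Snell dwarfs had 1 and 0 muscle counts and 880 and 212 H19 counts. Thus the Snell dwarfs had over 100 H19 counts with and without muscle transcripts, whereas outside that model every library over 100 H19 counts also held over 1000 of the pair, as the plot of H19 against muscle counts shows. Below that level, the third calorie restricted male of 12 months had 37 H19 counts (2.27 CPM) and 0 muscle counts, against 4 and 0 H19 counts in its mates. This lies within the range of the GHRKO livers, 1.34 to 2.43 CPM.

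**Figure D1:**
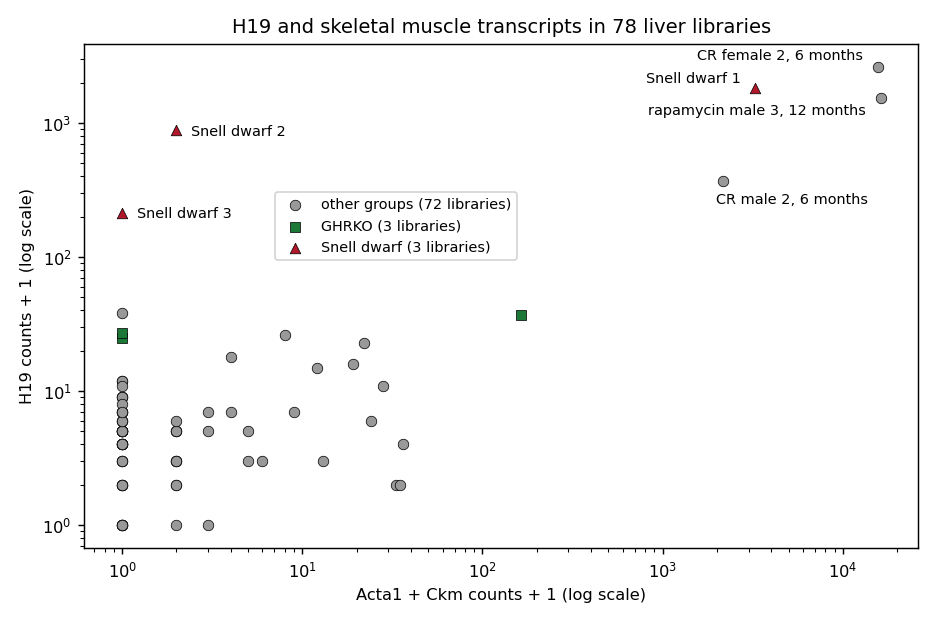
H19 counts (vertical, log scale, plus 1) against the summed counts of Acta1 and Ckm (horizontal, log scale, plus 1) in each of 78 liver libraries. Snell dwarfs are triangles, GHRKO mice squares and all other groups circles, and Snell dwarfs 2 and 3, with 880 and 212 H19 counts, sit at the left edge with 1 and 0 muscle counts.

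By group-centred log2 CPM over the 78 libraries, the 5 of 13824 genes most like H19 were Eno3, the enolase of muscle (r = 0.842), Mylk4 (0.833), Tbx15 (0.822), Sim2 (0.815) and Jsrp1, a protein of the muscle calcium store (0.814). Without the 5 libraries above 100 muscle counts, the same genes had r = 0.385, -0.0369, 0.266, -0.207 and 0.0434, and none was among the first 5. These values are descriptions over libraries that share their depth and scaling.

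Snell dwarf livers held the highest H19 outside the muscle-bearing libraries and the highest Gpc3 of any group. H19 had 1812, 880 and 212 counts in the 3 dwarfs and 0, 0 and 1 in their controls, or 57.4 ± 44.7 CPM (SD, n = 3) against 0.0209 ± 0.0362. The 2 groups did not overlap. By summed counts the dwarfs were 2770 times the controls, with a 95% counting interval of 497 to 109000, and 1620 times (290 to 63900) without the first dwarf. These intervals cover counting error alone and leave out the spread between mice. The fitted log2 fold change, 10.99 ± 1.65 (SE), depends on the prior count, since the controls hold 1 count in all. The call also needs all 3 controls: without any one of them the adjusted p (edgeR) was 0.0582 to 0.107. The cause of this loss was not tested.

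Gpc3 had 212, 64 and 68 counts in the Snell dwarfs against 2, 8 and 7 in the controls, again without overlap, with a log2 fold change of 4.24 ± 0.64. The first dwarf, which carries the muscle transcripts, had the most, and without it the value was 3.51 ± 0.41. Igf2 had 44, 24 and 18 counts against 9, 3 and 8, also without overlap, and a log2 fold change of 2.02 ± 0.49. Without the first dwarf the Igf2 value fell to 1.63 ± 0.50 and missed the threshold (edgeR quasi-likelihood test, adjusted p = 0.0542), as it did without any one control (0.0527 to 0.0808). H19, Gpc3 and Igf2 were thus the 3 members called, at an adjusted p under 0.05, among the 6 tested in the Snell dwarf, where 20.1% of 12528 genes were called. These 3 were low in the controls and passed the filter on low counts through the dwarfs alone. Their number therefore cannot be set against that share. Afp, with 99, 62 and 33 counts against 38, 38 and 37, overlapped its controls and was not called (0.72 ± 0.37). Peg3 (0.72 ± 0.43) and Meg3 (-0.49 ± 0.93) were not called either.

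Genes listed as markers of other tissues also differed between the dwarfs and their controls. The summed counts of 6 mesothelium markers were 147 to 323 in the Snell dwarfs and 44 to 91 in their controls, and 3 of the 4 tested were called higher: Msln (2.64 ± 0.37), Upk3b (2.27 ± 0.53) and Gpm6a (1.27 ± 0.31). Adipocyte markers summed to 600 to 764 against 122 to 339, with Fabp4 and Adrb3 called higher. Adrenal markers summed to 58 to 115 against 32 to 39, with Akr1b7 called higher (5.29 ± 0.80) of 2 tested, and proliferation markers to 724 to 955 against 512 to 616, with Pcna called higher of 7 tested. Pancreas markers summed to 136 to 153 against 1183 to 1251, with Cela1 the only one called (-3.28 ± 0.13). Cela1 was also called lower in methionine restriction (-1.84 ± 0.19) and in calorie restriction at 12 months (-0.85 ± 0.27). Whether single called genes such as Cela1 and Akr1b7 reflect those tissues or the liver itself was not tested. The part of these tissues in Gpc3, Igf2 and H19 was not tested. As a check of the liver label, 10 hepatocyte genes summed to 2555414 to 3428538 counts in the dwarfs and 1555498 to 2139571 in the controls.

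In GHRKO livers H19 was higher and Meg3 lower than in the controls. H19 had 36, 24 and 26 counts against 3, 1 and 6, without overlap, or 1.8 ± 0.566 CPM against 0.191 ± 0.15 (SD, n = 3), and the log2 fold change was 3.22 ± 0.53. The first GHRKO mouse had the 162 muscle counts, and without it the value was 2.95 ± 0.58, still called. Meg3 had 7, 7 and 8 counts against 51, 174 and 63, also without overlap, and a log2 fold change of -3.53 ± 0.54. Pancreas markers summed to 164 to 223 counts in the GHRKO mice and 401 to 752 in the controls. Cela1 was the only pancreas marker called (-1.69 ± 0.25), and the part of these markers was not tested. H19 and Meg3 were the 2 members called of the 5 tested, where 14.8% of 12571 genes were called. H19 passed the filter on low counts through the GHRKO mice alone and Meg3 through the controls alone. Mirg had 0, 1 and 0 counts against 0, 15 and 5 and overlapped its controls.

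Afp had 45, 54 and 42 counts in GHRKO mice and 25, 33 and 31 in the controls, a difference of 0.81 ± 0.25 that did not pass the threshold (edgeR adjusted p = 0.0602) although the counts did not overlap. Igf2, too low to be tested, had 16, 15 and 9 counts against 8, 10 and 2, or 0.827 ± 0.258 against 0.367 ± 0.222 CPM. Gpc3 (36, 18 and 5 against 20, 8 and 5) and Peg3 (28, 26 and 54 against 46, 42 and 48) overlapped their controls.

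The 2 dwarf models were then compared directly, as the Snell effect minus the GHRKO effect in 1 fit of the 12 libraries. None of the 6 members tested passed, in a comparison in which 1.16% of 13105 genes did. The difference was 7.79 ± 2.86 for H19 (edgeR adjusted p = 0.313), 3.23 ± 1.13 for Gpc3 (0.268) and 3.03 ± 1.24 for Meg3 (0.357), and 3 members had an unadjusted p under 0.05. DESeq2 called 1 member. A difference between the models is therefore not shown for any member by the main test, nor is likeness.

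**Figure D2:**
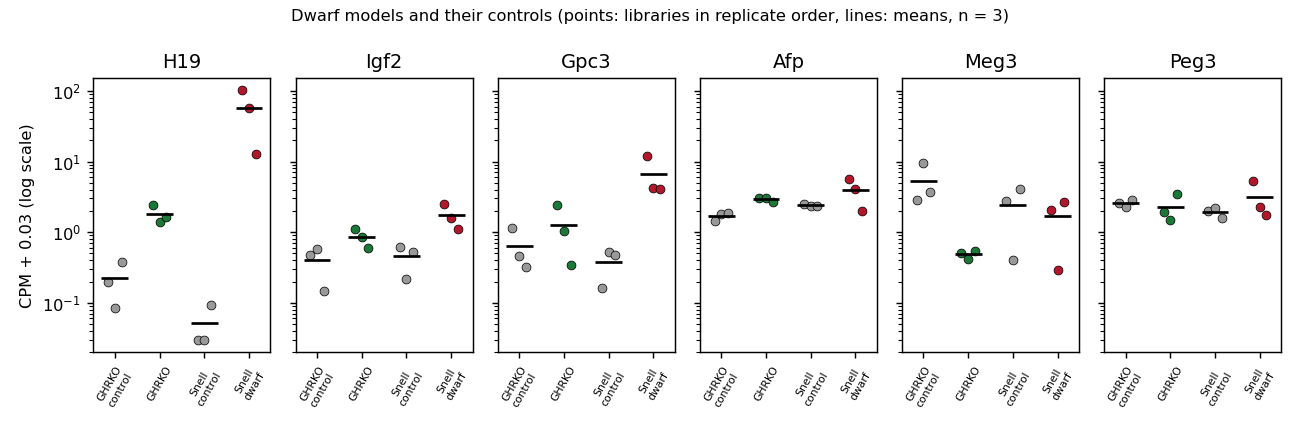
CPM plus 0.03 (log scale) of H19, Igf2, Gpc3, Afp, Meg3 and Peg3 in GHRKO mice, Snell dwarfs and the controls of each, with 1 point for each library and a line at the mean of 3. H19 was 57.4 CPM on average in the Snell dwarfs and 1.8 in GHRKO mice, and Meg3 was at 0.455 in GHRKO mice against 5.31 in their controls.

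Growth hormone is known to act on the liver through genes of the IGF system. Of 11 tested genes of this list, 2 were higher and 3 lower in GHRKO, where 14.8% of all genes were called. The 3 lower genes include Ghr (-2.9 ± 0.2), the targeted gene itself, whose fall follows from the genotype. In the Snell dwarf, where 20.1% of all genes were called, 2 were higher and 4 lower. Igf1, the main growth factor released by adult liver, fell in both (log2 fold changes of -6.06 ± 0.18 in GHRKO and -4.89 ± 0.33 in the Snell dwarf). Igfals, which carries it in serum, also fell (-5.05 ± 0.26 and -4.88 ± 0.42). Zbtb20, a repressor of Afp, fell as well (-1.13 ± 0.21 and -1.83 ± 0.16). It was the only regulator called in either model, of 15 tested.

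Among other genes of fetal liver, 14 in the list, 6 were tested in GHRKO and 8 in the Snell dwarf. Scd2, the stearoyl-CoA desaturase of fetal liver, rose by 3.58 ± 0.48 in GHRKO and by 5.30 ± 0.36 in the Snell dwarf. Lpl, lipoprotein lipase, rose by 1.93 ± 0.22 and 4.37 ± 0.36. These were the 2 called in GHRKO, and in the Snell dwarf Igf2bp3, which binds Igf2 RNA, also rose (5.64 ± 1.09) while Mycn fell by 2.86 ± 0.54. The median of the tested list genes was 0.51 in GHRKO and 0.96 in the Snell dwarf, beside -0.01 and 0.01 over all genes tested. List genes low in both groups were not tested, while a gene high in the dwarfs alone was. The filter can therefore raise these medians, and they are no measure of the whole list.

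Of maternally expressed imprinted genes that are not members, 3 of 13 tested were higher and 2 lower in GHRKO, and 3 higher and 1 lower in the Snell dwarf. Cdkn1c, a cell cycle inhibitor, rose by 2.27 ± 0.32 and 2.60 ± 0.27, and Osbpl5 by 1.56 ± 0.27 and 2.05 ± 0.49. Of genes listed as paternally expressed, 1 of 10 tested was higher and 1 lower in GHRKO, and 0 of 11 were higher and 2 lower in the Snell dwarf. The medians of the maternal list, 0.11 and 0.33, and of the paternal list, 0.02 and 0.32, did not separate the 2 lists. Here and below, maternal and paternal expression is that of the lists, and the parental copy transcribed in these livers was not measured.

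Meg3 was the member called in acarbose at 6 months, the 1 of 7 tested, where 6.16% of 14816 genes were called. It had 834, 621 and 1289 counts in acarbose males against 411, 183 and 383 in control males, and 129, 28 and 117 in acarbose females against 25, 7 and 17. Treated and control mice did not overlap in either sex, though the lowest treated female came within 3 counts of the highest control. The log2 fold change over both sexes was 2.03 ± 0.51. Without the third acarbose female it was 1.89 ± 0.54 (edgeR adjusted p = 0.0594), and without the second control female 1.88 ± 0.55 (0.0525), so either library decides the call. Other markers moved with the females. Adrenal markers summed to 108 to 331 counts in acarbose females against 52 to 101 in control females, with 0 of 5 tested called. Markers of bile duct and progenitor cells summed to 1906 to 2674 against 1213 to 1683, with 3 of 9 called higher, and proliferation markers to 1030 to 1396 against 712 to 794, with 4 of 11 called higher. These marker calls come from the comparison in females alone, which called 10.6% of genes. The part of these markers in Meg3 was not tested. The acarbose male with 1289 counts also held 5795 counts of pancreas markers. Without the 9 libraries set apart for markers of another tissue the value was 1.84 ± 0.44 and still called. Mirg had 44, 25 and 61 counts in acarbose males against 15, 1 and 27, and 5, 2 and 4 in females against 0, 0 and 1, and its log2 fold change of 2.36 ± 0.80 was not called. Gpc3 had 4, 0 and 1 counts in acarbose males against 19, 5 and 27, and 20, 3 and 4 in females against 18, 34 and 16, and was not called either (-2.30 ± 0.76). Of the lists, 2 of 17 maternally expressed genes were lower in acarbose, Ppp1r9a (-0.99 ± 0.28) and Slc22a3 (-0.99 ± 0.30), as was 1 of 15 paternally expressed, the amino acid transporter Slc38a4 (-0.38 ± 0.08). Of 8 fetal liver genes Spp1, which encodes osteopontin, was higher (0.61 ± 0.14).

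At 12 months acarbose called none of the 7 members tested, and 0.0587% of 13639 genes were called. Meg3 had 316, 101 and 349 counts in acarbose males against 176, 79 and 113, and 6, 3 and 7 in females against 11, 10 and 1, for a log2 fold change of 0.40 ± 0.58. Peg3 was -1.12 ± 0.39 and not called (edgeR adjusted p = 0.351). The difference between the ages was not tested, as they were fitted apart.

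Calorie restriction at 6 months called H19 and Peg3 of 7 tested, in a comparison in which 26.1% of genes were called. The H19 value, 6.64 ± 1.23, and its call rest on the muscle-bearing female and male described above. The other restricted females had 0.995 and 0.361 CPM against 0.12 to 0.207 in control females. The other restricted males had 0.16 and 0.135 CPM against 0.0659 to 0.117 in control males. These mice thus lay above every control of their sex, in the males at 5 and 4 counts. Without the 4 libraries with muscle transcripts it was 1.43 ± 0.71 (edgeR adjusted p = 0.181). Of 7 muscle markers tested, 6 were called higher in the same comparison, with a median of 4.91.

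Peg3 had 100, 87 and 130 counts in restricted females against 597, 268 and 476, and 154, 67 and 82 in restricted males against 308, 259 and 214. The groups did not overlap in either sex, and all 6 restricted mice were below every control. The log2 fold change was -1.72 ± 0.35, and it stayed between -1.92 and -1.61 when each library was left out in turn. At 12 months Peg3 was -0.73 ± 0.38 and not called, with 73, 31 and 18 counts in restricted females against 185, 28 and 90, and 28, 14 and 30 in males against 26, 26 and 52. Calorie restriction at 12 months called none of the 7 members, while 13.8% of genes were called.

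Of the other paternally expressed imprinted genes, 1 of 15 tested was higher and 4 lower in calorie restriction at 6 months. Dio3, a thyroid hormone deiodinase at the far end of the Dlk1 domain, rose by 2.62 ± 0.40, Airn, an antisense RNA whose reads cannot be told apart from those of its partner, fell (-2.07 ± 0.51), as did Mcts2 (-0.55 ± 0.15). Of the maternally expressed, 3 of 17 were higher and 0 lower, among them Osbpl5 (1.99 ± 0.30) and Cdkn1c (0.74 ± 0.26), the pair also called in both dwarf models and, at 1.63 ± 0.32 and 0.79 ± 0.22, in calorie restriction at 12 months. None of the 8 other fetal liver genes tested was called at 6 months. Of 16 regulators 4 were higher and 1 lower, among them the Afp repressors Zhx2 (0.59 ± 0.14) and Zbtb20 (0.52 ± 0.13), both higher, while Afp itself was not called.

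**Figure D3:**
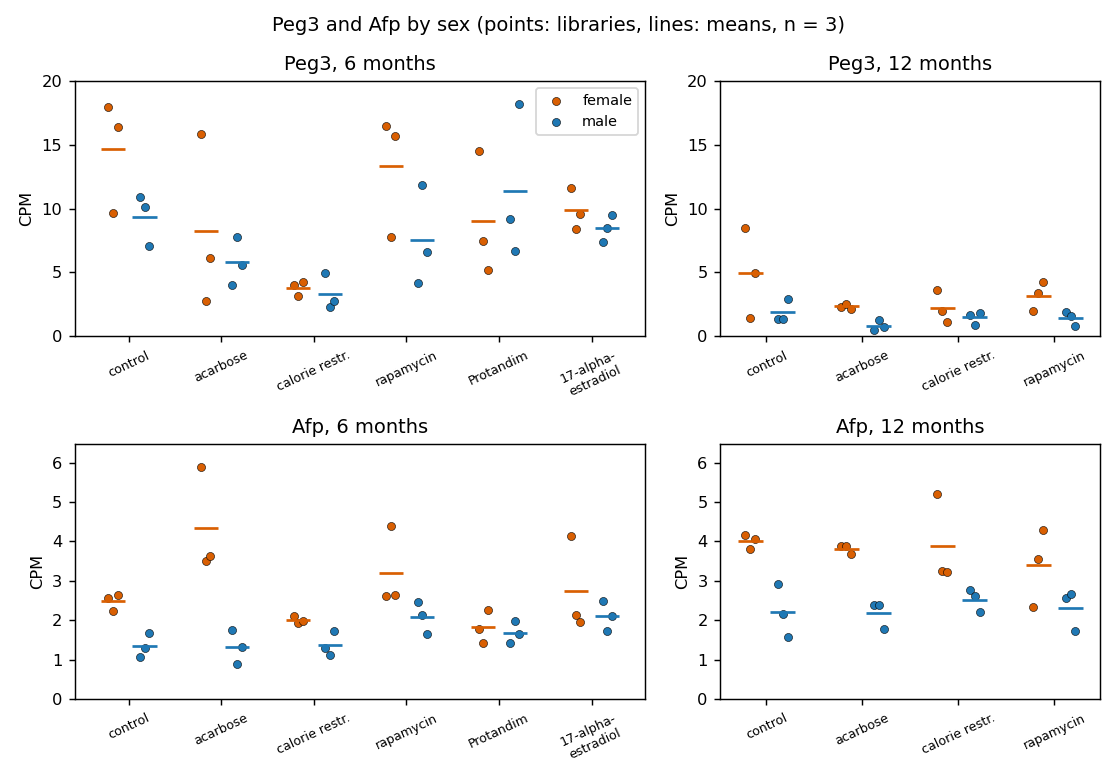
CPM of Peg3 and Afp by intervention, age and sex, with 1 point for each library and a line at the mean of 3. Peg3 in calorie restriction at 6 months was 3.8 CPM on average in females and 3.31 in males against 14.7 and 9.33 in controls, and Afp was lower in males than females in most groups.

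Rapamycin, Protandim and 17aE2 called none of the 7 members at 6 months, nor did rapamycin at 12 months, in comparisons that called 0.412%, 1.38%, 0.385% and 0.0% of genes. The smallest unadjusted edgeR p was that of Meg3 in rapamycin at 6 months, 0.0131, where the value was 1.37 ± 0.51. In rapamycin males Meg3 had 153, 1086 and 446 counts. The library with 1086 carried 55159 counts of adrenal markers, and in it Gpc3 had 116 counts against 1 and 9 in its mates and Igf2 39 against 18 and 8. In 17aE2 males, the library with 30766 counts of kidney markers had 77 Gpc3 counts against 20 and 16. The part of these tissues in the 3 genes was not tested. At 12 months in rapamycin, H19 was 3.13 ± 1.93, which rests on the muscle-bearing male. Of 8 other fetal liver genes tested at 6 months, Tff3, a trefoil factor, was called higher in 17aE2 (5.05 ± 0.61), and none was called in rapamycin or Protandim.

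Methionine restriction called none of the 6 members tested, in a comparison that called 3.8% of 13858 genes. Meg3 had 2, 12 and 12 counts in restricted mice against 10, 32 and 39 (-1.88 ± 0.65), and Afp had 43, 38 and 36 against 44, 70 and 74 (-0.89 ± 0.32). Peg3 was 238, 184 and 295 against 163, 94 and 85 (0.89 ± 0.28), and Gpc3 62, 65 and 55 against 33, 37 and 41 (0.51 ± 0.25). Gpc3 was the one of these 4 whose CPM did not overlap the controls. Leaving out the first control mouse brought 3 members past the threshold. Of 8 other fetal liver genes, Tff3 and Mycn were called lower (-6.73 ± 0.50 and -2.93 ± 0.46).

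**Figure D4:**
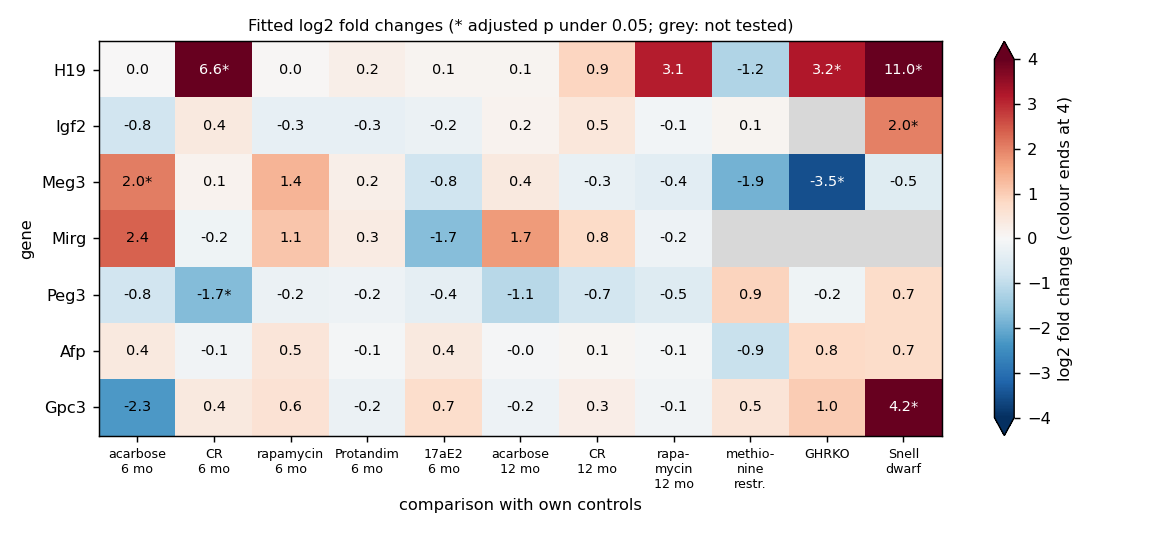
Fitted log2 fold changes of the 7 detected genes in the 11 comparisons of an intervention with its own controls, with both sexes averaged at 6 and 12 months. An asterisk marks an adjusted p under 0.05, grey a gene not tested, and colour ends at 4, so that H19 at 10.99 in the Snell dwarf is drawn at the limit.

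Meg3, a noncoding RNA of the Dlk1 domain, differed between the sexes. The mean level of Meg3 was above that of females in males of all 10 UM-HET3 groups. In control mice of 6 months it had 411, 183 and 383 counts in males and 25, 7 and 17 in females, or 11.4 ± 3.83 against 0.53 ± 0.254 CPM (SD, n = 3). In controls of 12 months it had 176, 79 and 113 counts against 11, 10 and 1, or 6.51 ± 2.44 against 0.359 ± 0.263 CPM. Every male was above every female in both. The log2 difference, male minus female, was 4.40 ± 0.80 at 6 months (edgeR quasi-likelihood test, adjusted p = 0.000935) and 4.12 ± 0.76 at 12 months (0.00304), where 4.98% and 2.88% of genes were called.

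The treated groups, which share no library with the controls, gave the same direction. At 6 months the edgeR log2 difference of Meg3 was 3.57 ± 0.70 in acarbose (adjusted p = 0.0013), 4.33 ± 0.79 in calorie restriction (0.00152), 3.28 ± 0.71 in rapamycin (0.00781), 4.06 ± 0.77 in Protandim (0.00101) and 3.49 ± 0.82 in 17aE2 (0.0131). These contrasts called 12.4%, 2.01%, 2.61%, 9.75% and 3.87% of genes. At 12 months it was 5.73 ± 0.81 in acarbose (0.000221) and 4.26 ± 0.82 in rapamycin (0.00434), where 1.85% and 2.65% of genes were called. Left out in turn, the library with adrenal markers took the rapamycin value at 6 months to 2.49 ± 0.70 (0.065), and leaving out rapamycin female 2 or 3 (0.0619 and 0.067) or 17aE2 female 2 or 3 (0.091 and 0.0566) also took the call from its group. In a fit of the compared groups alone the rapamycin value was 3.28 ± 0.75 and not called (0.0686).

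Calorie restriction at 12 months was the exception, where 2.56% of genes were called. Its males had 54, 22 and 52 Meg3 counts and its females 30, 2 and 1, so that the groups overlapped, and the log2 difference was 2.12 ± 0.73 (edgeR adjusted p = 0.138). The female with 30 counts was the library with 5204 counts of adrenal markers. Without it the difference was 4.71 ± 0.92 (0.00661). Males were thus above females without overlap in 9 of the 10 groups, as were 0.853% of 15590 genes with counts.

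Mirg, the host of a microRNA cluster downstream of Meg3, had the same pattern at lower counts. Control males had 15, 1 and 27 counts at 6 months and 12, 6 and 8 at 12 months, against 0, 0 and 1 and 0, 0 and 0 in females. At 12 months this is at least 8.61-fold higher in males, taking the limit of 3 counts for the females together. That bound leaves out the error of the male counts and the spread between mice. The difference passed in 5 of the 10 groups: in controls of 6 months (edgeR adjusted p = 0.0151) and 12 months (0.0345), acarbose of 6 months (0.0053) and 12 months (0.00569) and Protandim (0.0152). Males were above females without overlap in 8 groups, which 1.17% of genes equalled or passed. Leaving out any one of the 6 control libraries took the call at 12 months away (0.066 to 0.114), and leaving out control female 1 or 2 or control male 3 took that at 6 months (0.0694 to 0.103). In Protandim female 2, female 3 or male 2 did so (0.0512 to 0.0782), and also the removal of the libraries with another tissue (0.0868). In the 27 libraries with at least 100 Meg3 counts, Mirg had 0.546 to 13.2 counts for each 100 of Meg3, with a median of 4.07. Over all libraries, centred on groups, Mirg was also the gene most like Meg3 (r = 0.641), before Sorcs2 (0.561), Kif1a (0.487), Eno2 (0.486) and Cul9 (0.484). Rian, which lies between the 2 genes, was listed at 0 in the same libraries.

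**Figure D5:**
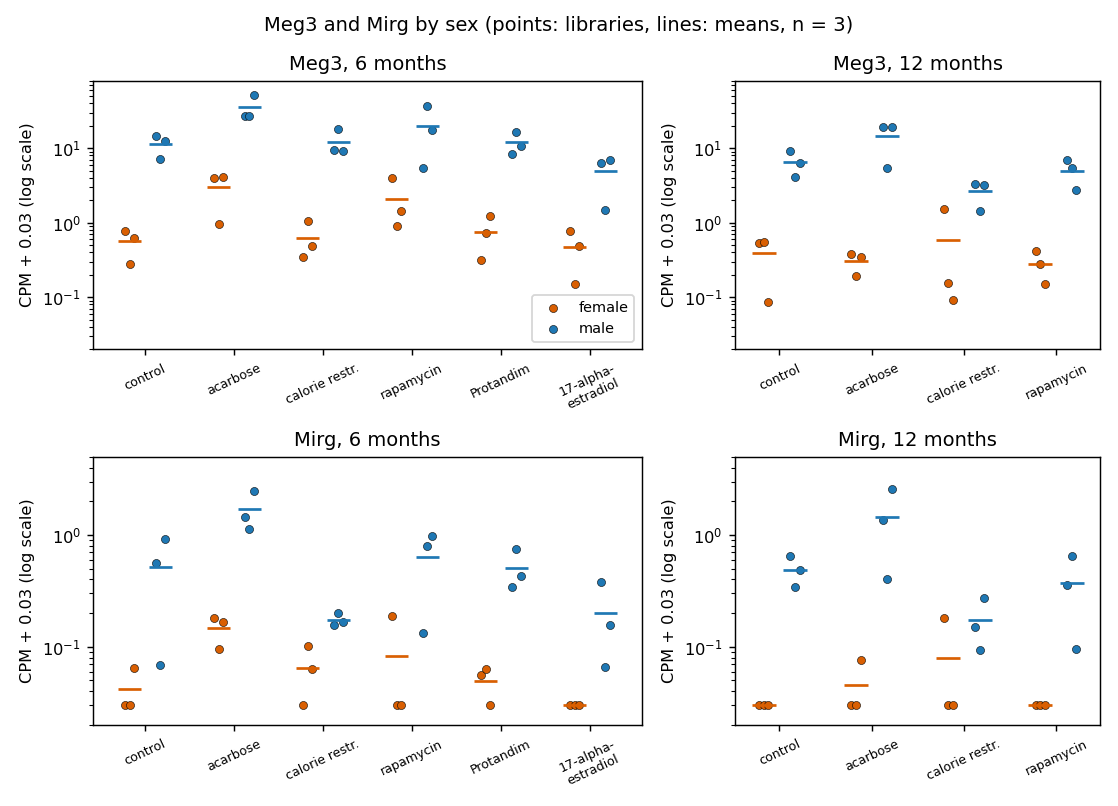
CPM plus 0.03 (log scale) of Meg3 and Mirg in females and males of each intervention at 6 and 12 months, with 1 point for each library and a line at the mean of 3. Meg3 in males lay above females in every panel group except calorie restriction at 12 months, where 1 female reached 1.5 CPM and males began at 1.4.

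Afp, the fetal serum protein, had lower levels in males in most groups, but the difference passed in 1 of them. In controls of 6 months it had 85, 62 and 77 counts in females and 30, 33 and 51 in males, and at 12 months 90, 74 and 74 against 57, 41 and 28, with no overlap in CPM in either. The log2 differences, male minus female, were -0.88 ± 0.30 (edgeR adjusted p = 0.0853) and -0.85 ± 0.26 (0.0944), which did not pass. In acarbose at 6 months, with 195, 107 and 105 counts in females and 54, 20 and 33 in males, the difference of -1.72 ± 0.30 passed (0.000295) and stayed between -1.97 and -1.44 when each library was left out. It was the only group of the 10 that passed. Males were below females without overlap in 7 of the 10 groups, which 1.36% of genes equalled or passed. In acarbose Afp was 4.34 ± 1.35 CPM in females against 2.48 ± 0.217 in control females, and 1.32 ± 0.438 in males against 1.34 ± 0.316. The effect in males minus that in females was -0.84 ± 0.42 and did not pass (edgeR adjusted p = 0.355).

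Peg3, Igf2 and Gpc3 did not pass between the sexes in any of the 10 groups. H19 passed in rapamycin at 12 months alone (7.89 ± 1.97, edgeR adjusted p = 0.0403), which rests on the muscle-bearing male, and without that library the value was 0.76 (0.883). Nor did the effect of any intervention on any of the 7 members differ between the sexes by the edgeR test of the difference. Those 8 tests called 0.378% of genes in acarbose, 0.00675% in calorie restriction, 0.0% in rapamycin, 0.0% in Protandim and 0.054% in 17aE2 at 6 months, and 0.00733%, 0.0% and 0.0% in acarbose, calorie restriction and rapamycin at 12 months.

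The levels at each age are given side by side. Peg3 was 14.7 ± 4.4 CPM in control females and 9.33 ± 2.01 in control males at 6 months, and 4.96 ± 3.54 and 1.88 ± 0.915 at 12 months. Afp had 4.0 ± 0.174 CPM in control females and 2.22 ± 0.673 in control males at 12 months, against 2.48 ± 0.217 and 1.34 ± 0.316 at 6 months. The ages were not compared by a test, since mice of different ages were fitted apart and age cannot be told apart from anything else that differed between those sets. The genes most like Peg3 over all libraries, centred on groups, were Phc3 (r = 0.738), Rapgef4os3 (0.676), Bptf (0.672), Ralgapb (0.66) and Dop1a (0.656). Those most like Afp were Zfp943 (0.563), Ctbs (0.558), Col4a3bp (0.547), Kctd9 (0.524) and Fv1 (0.521).

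Sex differences of the other lists in the controls are given beside the share over all genes tested, 4.98% at 6 months and 2.88% at 12 months. Of 17 maternally expressed imprinted genes tested at 6 months, Calcr, the calcitonin receptor, was higher in males (3.98 ± 0.99), and of 14 at 12 months Cdkn1c was lower in males (-2.18 ± 0.32). None of 15 paternally expressed genes at 6 months and none of 12 at 12 months was called. Of 8 other fetal liver genes, Mycn was higher in males in controls of 6 months and of 12 months (2.64 ± 0.59 at 12 months), and Tff3 at 6 months (5.41 ± 1.05). Of 16 regulators, Dnmt1, the maintenance DNA methyltransferase, Tet3 and Zbtb20 were higher in males at 6 months (0.60 ± 0.15, 0.56 ± 0.15 and 0.65 ± 0.19), and none was called at 12 months.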

How the data were processed

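Poly(A) RNA from 78 mouse livers was sequenced, and the authors deposited 1 table of raw read counts for 43629 genes. Per the submitters' processing notes, bcl2fastq 1.8.4, Trimmomatic 0.32, STAR 2.5.2b and featureCounts 1.5 were used with GRCm38/mm10. The gene annotation and strand setting are not given in the sources used here. Counts per library gave 15521588 to 37778510 reads, which leaves wide counting error for genes with few counts. Groups follow the labels, with 3 biological replicates each.

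The counts were fitted with edgeR 4.0.16 (quasi-likelihood test, robust, trimmed mean of M values, its filter on low counts) in R 4.3.3, in separate fits for 6 months, 12 months, methionine restriction and each dwarf model. Another fit held both dwarf models. A gene was called at a Benjamini-Hochberg adjusted p under 0.05 over all genes tested. Standard errors are the log2 fold change divided by the square root of F. The script was tested on simulated data.

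The members and lists were chosen with earlier results of these data known. All 9 members are named in each comparison, up to 4 called genes of a list by smallest adjusted p, and the 5 genes most like H19, Meg3, Afp and Peg3. Of 203 list entries 202 matched a symbol. Alternatives were no filter, DESeq2 1.42.0, a replicate block, fits of the compared groups alone and leaving out each library. Leaving out the 9 libraries set apart for markers of other tissues, or the 4 of these with skeletal muscle, was added after seeing the data.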

Additional observations from a re-analysis of the deposited data

Results flagged for a closer look

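These results had every treated mouse on one side of the control mean in one group and on the other side in another, and the differences between the ages were not tested. The differences between the sexes were not tested on this ratio, and the edgeR tests of the difference between the sexes called no member. Each value is the mean CPM of the treated mice divided by that of the controls, with 3 mice in each group. Igf2 in rapamycin at 12 months was 0.516 in females and 1.68 in males. Meg3 in acarbose females was 5.57 at 6 months and 0.77 at 12 months. Afp in Protandim was 0.73 in females and 1.25 in males, and Afp in acarbose females was 1.75 at 6 months and 0.951 at 12 months. Gpc3 in calorie restriction at 12 months was 2.3 in females, where the library with adrenal markers had 51 counts against 19 and 16, and 0.619 in males. Gpc3 in calorie restricted males was 1.42 at 6 months and 0.619 at 12 months.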

How the results depend on the processing

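The number of members called changed as follows, and where no construction of the setting shows it the cause was not tested. With DESeq2 it was 2 in acarbose at 6 months (1 with edgeR), 1 in calorie restriction at 6 months (2), 1 in methionine restriction (0) and 1 in the Snell minus GHRKO comparison (0). In calorie restriction at 6 months it was also 1 without the 9 libraries with other tissues and 1 without the 4 with skeletal muscle, as H19 left the calls. With the replicate block it was 1 in methionine restriction. Leaving out each library in turn gave 0 to 3 in acarbose at 6 months, 0 to 3 in methionine restriction (3 without control 1), 1 to 4 in the Snell dwarf (1 without any one control), 0 to 1 in the Snell minus GHRKO comparison (1 without Snell dwarf 3), and 1 to 2 between control males and females at 6 months and 1 to 2 at 12 months. The relation of H19 to skeletal muscle in the 73 libraries turned to r = -0.131 with 14 muscle markers in place of Acta1 and Ckm. Over 28 values of single members under 953 alternatives, 81 had another call and 0 reversed. Peg3 in calorie restriction at 6 months and Meg3 and H19 in GHRKO kept their calls throughout. The labels do not say that a replicate number is shared, and the correlation of deviations between libraries of the same number was not over 0.1 in every pair of any set: its median was 0.0037 at 6 months, -0.00355 at 12 months, 0.0835 in methionine restriction (0.0429 to 0.186), -0.00658 in GHRKO and 0.0972 in the Snell dwarf (-0.136 to 0.126). Besides methionine restriction, the replicate block took the call from Meg3 in acarbose females of 6 months (2.43, edgeR adjusted p = 0.058) and from H19 between the sexes in rapamycin at 12 months (6.36, 0.113). At these counts, differences in Mirg, H19 and Igf2 of a few counts were not detectable.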
